A study of Marchantia polymorpha and Arabidopsis thaliana with 54 samples.

Results

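The data are the heat response of an Arabidopsis thaliana line called eTK, whose label names HSFA1A, HSFA1B and HSFA1D as knocked out. Its 3 libraries from seedlings kept at 37 °C for 1 h were set against its 3 control libraries from seedlings kept at 22 °C, over all genes. These 6 libraries are chosen by their labels alone, out of 18 Arabidopsis libraries and 54 samples in the whole series, whose other 36 samples are of the liverwort Marchantia polymorpha and were not analysed here. Both groups were whole seedlings, 7 days old, grown in continuous light on agar with sucrose, and all 6 libraries belong to batch 1. Both eTK groups carry the same lesions, and the labels do not say how many independent lines eTK represents. The wild type Col-0, with 3 heat and 3 control libraries of the same batch, serves here only to show where the eTK response differs.

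In plants the HSFA1 proteins are the transcription factors that start the heat shock response. Without heat they are held inactive by chaperones such as HSP70 and HSP90, and in heat, when these chaperones bind unfolded proteins, they are released and bind heat shock elements in the promoters of small heat shock protein genes, HSP101, DREB2A and further heat shock factors such as HSFA2. Other routes also answer heat and need not start with HSFA1. Among them are the response of the endoplasmic reticulum (ER) to unfolded proteins, calcium and touch signalling, abscisic acid and jasmonate signalling, and the PIF and clock factors that tie growth to temperature. The eTK libraries show which part of the response to heat is left in this line, whose label does not name HSFA1E. What is left is therefore not assigned to routes outside HSFA1.

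The eTK heat libraries held 59991169, 61808199 and 64844153 counts, and the eTK control libraries 68955151, 94037169 and 104942533. Levels are CPM, counts scaled to a common library total, on library sizes scaled by TMM factors, which correct for the make-up of a library, and fold changes are log2 of heat over control with their standard error (SE). A gene was called when edgeR's quasi-likelihood test gave a Benjamini-Hochberg adjusted p below 0.05 over all 22696 genes tested. "Rose" and "fell" are used only of called genes. Nothing in the labels says that the 3 replicates of a group were separate cultures, so the p-values measure only scatter between libraries, which may be technical. That scatter was estimated within the groups of all 18 Arabidopsis libraries.

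The targeted genes were looked at first. In control, HSFA1B had 1.49 ± 0.453 CPM in eTK and 14.1 ± 1.05 CPM in Col-0 (SD, n = 3 each), a log2 difference of −3.26 ± 0.18 (edgeR adjusted p = 4.41e-10). HSFA1D was also lower, at 5.47 ± 0.347 CPM in eTK and 14.2 ± 0.471 CPM in Col-0, a difference of −1.37 ± 0.11 (edgeR adjusted p = 6.17e-08). HSFA1A went against the label: it had 13 ± 1.01 CPM in eTK and 6.73 ± 0.559 CPM in Col-0, a difference of 0.95 ± 0.17 (edgeR adjusted p = 0.000688). Transcripts can persist from a gene with a disabling lesion, so this level does not settle the genotype, and the library names follow the label. HSFA1E, the untargeted member, stood at 6.44 ± 0.489 CPM in eTK and 4.79 ± 0.873 CPM in Col-0, and its difference of 0.42 ± 0.17 did not pass the test.

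The targeted genes themselves answered heat in eTK. HSFA1A (AT4G17750, chromosome 4.0, 9869818 to 9871646) had 2.8, 1.65 and 1.96 CPM in the heat libraries, against 13.9, 13.3 and 11.9 CPM in the control libraries. It fell by 2.61 ± 0.19 on the log2 scale (edgeR adjusted p = 3.26e-09), with all heat libraries under all control libraries, and the log2 fold change in Col-0 was −1.32. HSFA1D (AT1G32330, chromosome 1.0, 11656964 to 11660471) had 10.9, 8.17 and 9.28 CPM in the heat libraries, against 5.27, 5.28 and 5.87 CPM in the control libraries, and so rose by 0.79 ± 0.11, against a rise of 1.32 in Col-0. HSFA1E, with 9.97, 9.08 and 9.46 CPM in the heat libraries, against 7.01, 6.18 and 6.14 CPM in the control libraries, rose by 0.56 ± 0.17, and HSFA1B fell by 0.63 ± 0.20. HSFA1B did not pass the test without heat replicate 3, without control replicate 1, with only the libraries compared or with a replicate block (log2 fold changes −0.64 to −0.45, adjusted p of 0.0554 to 0.0743).

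Heat changed 54.9% of the genes tested in this line, and growth-related and housekeeping genes as well as stress genes were among those that changed. In eTK, 6027 genes rose and 6438 fell, or 26.6% and 28.4% of the genes tested, and the median gene moved by −0.01. No gene list below was tested against these shares. At 2-fold or more, 1424 genes rose (6.27%) and 2377 fell (10.5%). All 3 heat libraries lay above all 3 control libraries for 7452 genes (32.8%) and below them for 7684 (33.9%). In bulk seedlings, fewer cells of a type and less RNA per cell cannot be told apart.

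The difference between the eTK and the Col-0 response was tested as an interaction. It was called for 19.8% of genes, higher in eTK for 2177 (9.59%) and lower for 2307 (10.2%). In Col-0 itself 31.3% of the genes rose and 32% fell. Of the 1424 genes that rose 2-fold or more in eTK, 766 had no called difference from Col-0, 504 had a higher response in eTK and 154 a lower one. Of the 2377 that fell 2-fold or more, 1881 had no called difference, and the response was higher in eTK for 232 and lower for 264. Genes called in opposite directions with a called difference numbered 235 that rose in eTK and fell in Col-0, and 300 that fell in eTK and rose in Col-0. All of these differences are relative to the TMM scaling. The TMM factors were 1.01 to 1.02 in eTK heat and 1.07 to 1.09 in eTK control, but 0.642 to 0.669 in Col-0 heat and 1.06 to 1.09 in Col-0 control. On library size alone the median difference moved to 0.63, and 13670 genes were called higher and 1021 lower in eTK.

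**Figure D1:**
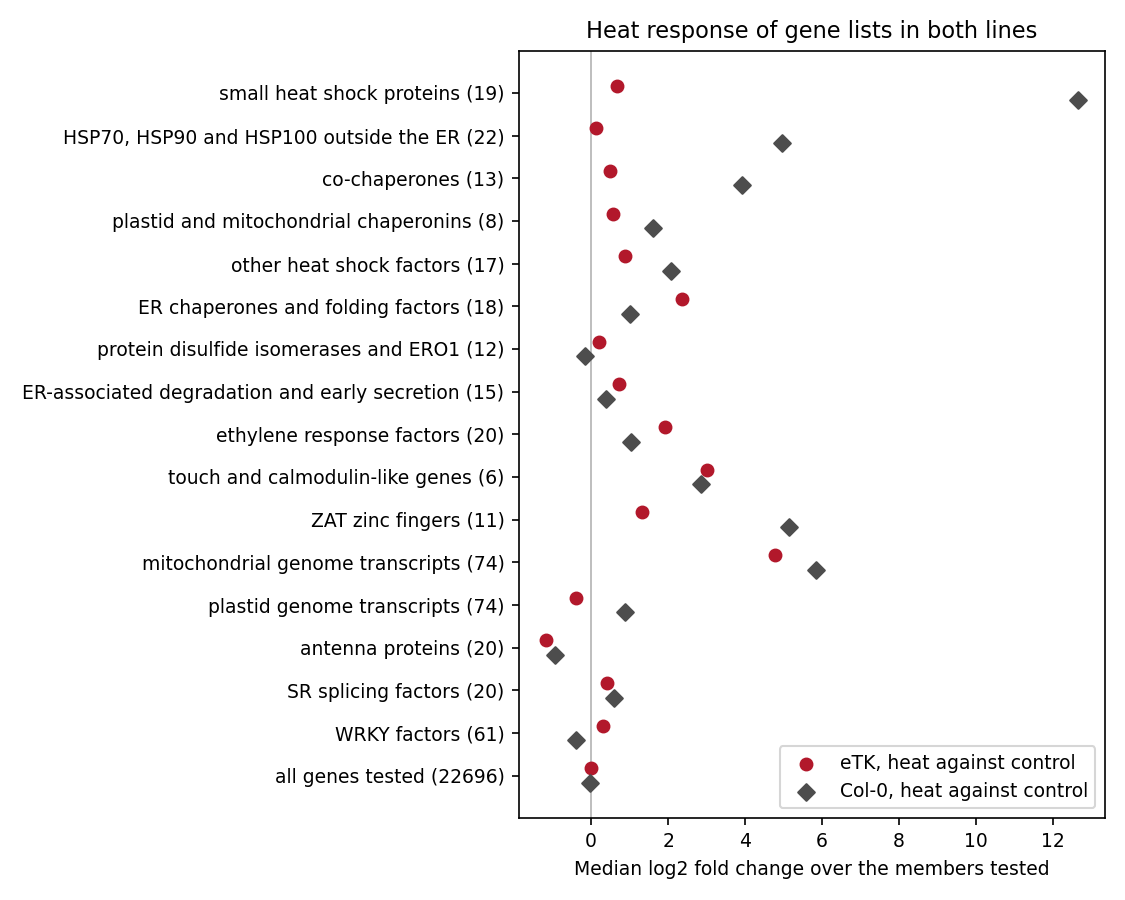
Median log2 fold change of heat over control in eTK (circles) and in Col-0 (diamonds) for 16 gene lists and for all genes tested, with the number of members tested in parentheses. Small heat shock proteins had a median of 0.68 in eTK and 12.65 in Col-0, whereas ER chaperones had 2.37 in eTK and 1.01 in Col-0.

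Among the 17 heat shock factors outside the HSFA1 group, 8 rose and 3 fell in eTK, with a median of 0.88 (2.07 in Col-0). HSFA2 (AT2G26150, chromosome 2.0, 11135624 to 11137792), the factor that prolongs the heat shock response, had 9.95, 10.3 and 7.83 CPM in the heat libraries, against 0.19, 0.0196 and 0.174 CPM in the control libraries. It was nearly silent in control and present in each heat library, a rise of 6.21 ± 0.41 (edgeR adjusted p = 2.12e-09), yet its rise in Col-0 was 13.75 and the difference between the lines −7.54 ± 0.84 (edgeR adjusted p = 2.98e-06). HSFA6B (AT3G22830, chromosome 3.0, 8078789 to 8081059), a factor tied to abscisic acid, had 78.5, 74.4 and 63.3 CPM in the heat libraries, against 3.31, 3.77 and 4.01 CPM in the control libraries. Its rise of 4.28 ± 0.21 was above that of 2.07 in Col-0, with a difference of 2.21 ± 0.28 (edgeR adjusted p = 1.33e-05).

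HSFB2B, HSFA3, HSFB2A and HSFB1 rose by 1.56, 1.31, 1.22 and 0.88 in eTK, and by 5.18, 3.71, 6.75 and 6.51 in Col-0. HSFB1 and HSFB2B are repressors of heat shock genes, and HSFA3 acts after DREB2A. HSFC1 rose by 0.97 ± 0.11 in eTK and fell in Col-0 (−0.34), a difference of 1.31 ± 0.16. HSFA7A, a factor that HSFA1 proteins induce, fell by 0.65 ± 0.16 in eTK and rose by 7.29 in Col-0. HSFA8 fell by 0.38 ± 0.13. HSFA6A had 4 counts in the 3 heat libraries together and 99 in the 3 control libraries, a ratio of 0.0617 (95% interval 0.0165 to 0.163). Such intervals cover counting error only and take every count as independent. HSFA8 did not pass the test without heat replicate 2 or 3 or without control replicate 1 (log2 fold changes −0.38 to −0.33, adjusted p of 0.0533 to 0.0821).

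The list of DREB2, CBF and MBF1 regulators had 15 members, of which 14 were tested, 9 rose and none fell, with a median of 0.63. DREB2A (AT5G05410, chromosome 5.0, 1602205 to 1604112), which HSFA1 activates in heat and which in turn activates HSFA3, had 33.5, 36.5 and 33.6 CPM in the heat libraries, against 5.1, 3.54 and 3.49 CPM in the control libraries. The heat libraries held several times the control level (log2 fold change 3.10 ± 0.14, edgeR adjusted p = 4.4e-12), but the rise in Col-0 was 8.78. CBF2, a cold and stress regulator, rose by 2.87 ± 0.25 in eTK and 2.68 in Col-0. DDF1, a relative of the CBF factors, had 195 counts in the heat libraries and 2 in the control libraries, a ratio of 149 (95% interval 40.7 to 1.24e+03). The coactivator MBF1C rose by 0.69 ± 0.14 in eTK and 8.60 in Col-0, whereas MBF1A rose by 1.15 ± 0.11 in eTK and 0.53 in Col-0.

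The promoters of 3 of these factors are shown because they hold a heat shock element of 3 inverted units, while the genes answered differently in eTK: HSFA2 and DREB2A rose and HSFA7A fell. The sequences run 5′ to 3′ up to the base before the annotated gene start, are at most 250 bases long and are from the RefSeq genome TAIR10.1. Bases inside a neighbouring gene are left out. Capitals mark 3 units in alternation, GAA and TTC, beginning with either and with 2 bases between units, searched on both strands. The element begins 88 bases before the start of HSFA2, 164 bases before that of DREB2A, and 192 and 142 bases before that of HSFA7A. HSFA7B, another heat shock factor, also holds the element, beginning 157 bases before its start, and is not shown.
HSFA2 (chr2:11135466-11135623, plus strand): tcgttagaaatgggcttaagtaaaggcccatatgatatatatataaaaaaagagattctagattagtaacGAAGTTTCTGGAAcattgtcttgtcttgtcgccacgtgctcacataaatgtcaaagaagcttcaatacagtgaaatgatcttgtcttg
DREB2A (chr5:1601955-1602204, plus strand): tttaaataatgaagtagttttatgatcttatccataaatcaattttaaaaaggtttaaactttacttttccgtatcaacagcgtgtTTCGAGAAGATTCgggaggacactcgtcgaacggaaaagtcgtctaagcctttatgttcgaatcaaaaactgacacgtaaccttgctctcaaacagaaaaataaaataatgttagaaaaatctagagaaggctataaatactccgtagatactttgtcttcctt
HSFA7A (chr3:19264891-19265140, plus strand): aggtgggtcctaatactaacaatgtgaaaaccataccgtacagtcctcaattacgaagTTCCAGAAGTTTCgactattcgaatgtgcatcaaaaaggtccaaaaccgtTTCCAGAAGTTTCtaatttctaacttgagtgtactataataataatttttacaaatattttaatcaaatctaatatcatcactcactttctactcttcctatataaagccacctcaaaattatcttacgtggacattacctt

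This element stood in 0.408% of the windows of 22547 nuclear genes tested and in 0.889% of those of the 1350 nuclear genes that rose 2-fold or more in eTK. It stood in 1.56% of the windows of the 2054 genes that rose 2-fold or more in Col-0. The shorter form with 2 inverted units, GAANNTTC or TTCNNGAA, stood in 18.9% of the windows of the risen eTK genes, in 16.1% of those of the 2375 genes that fell 2-fold or more, and in 16% of all windows. Every 3-unit match also holds a 2-unit match. A match describes letters in a window and is not a binding site.

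The heat shock proteins, the core of the wild-type response, mostly had smaller fold changes in eTK than in Col-0. Small heat shock proteins, cytosolic and organellar, numbered 19, of which 9 rose in eTK and none fell, with a median of 0.68 in eTK and 12.65 in Col-0. Their response was lower in eTK than in Col-0 for 15 of 19 genes. The list took 0.00857% to 0.0103% of the counts in the eTK heat libraries and 0.00629% to 0.00702% in the eTK control libraries, while it took 6.4% to 7.03% in the Col-0 heat libraries. AT1G07400, an HSP20-like chaperone, had 2.17, 2.34 and 2.15 CPM in the heat libraries, against 0.19, 0.353 and 0.174 CPM in the control libraries, so each heat library was above each control library (log2 fold change 3.20 ± 0.20, against 13.41 in Col-0). HSP17.4 (0.807, 0.649 and 0.453 CPM in the heat libraries, against 0.285, 0.265 and 0.192 CPM in the control libraries) rose by 1.38 ± 0.35 and HSP18.2 by 0.84 ± 0.18. HSP17.6II had 28 counts in the heat libraries and 6 in the control libraries and rose by 2.73 ± 0.86, and AT1G53540 had 40 and 12. The plastid chaperone HSP21, with 0.0988, 0 and 0.0302 CPM in the heat libraries, against 0, 0.0392 and 0.0174 CPM in the control libraries, did not pass the test in eTK. HSP21 had the opposite sign without heat replicate 1 (log2 fold change −0.38, adjusted p 0.862). HSP17.6II did not pass the test without heat replicate 3 or without control replicate 3 (log2 fold changes 1.88 to 2.05, adjusted p of 0.0571 to 0.135).

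Of the 22 HSP70, HSP90 and HSP100 genes outside the ER, 9 rose and 3 fell in eTK, with a median of 0.12 (4.97 in Col-0), and for 21 of them the response was lower in eTK. The gene with the symbol HSP70 (AT3G12580, chromosome 3.0, 3991117 to 3993886), a heat-inducible cytosolic chaperone, had 15.3, 17.2 and 21 CPM in the heat libraries, against 3.64, 2.88 and 2.67 CPM in the control libraries. It was above control in each heat library (log2 fold change 2.55 ± 0.22, edgeR adjusted p = 2.75e-08), and its rise in Col-0 was 10.90. HSP101, the disaggregase needed for acquired thermotolerance, had 12.9, 13.5 and 15.5 CPM in the heat libraries, against 7.78, 7.01 and 6.68 CPM in the control libraries, a rise of 0.97 ± 0.11 against 10.99 in Col-0. The mitochondrial mtHSC70-2 rose by 1.01 ± 0.13 in eTK and 7.22 in Col-0, and Hsp70-2, which has close copies that may share its reads, rose by 1.01 ± 0.19 in eTK.

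A few chaperone genes that rose in Col-0 fell in eTK. Hsp70b, a cytosolic HSP70, had 8.93, 7.88 and 9.93 CPM in the heat libraries, against 15.3, 13.7 and 13.7 CPM in the control libraries, a log2 fold change of −0.67 ± 0.12 against a rise of 11.45 in Col-0. CLPB4, the mitochondrial disaggregase, fell by 0.92 ± 0.11 in eTK and rose by 6.42 in Col-0, and HSP70-14 fell by 0.37 ± 0.093 and rose by 1.61. BAG6, a calmodulin-binding co-chaperone, had 3.66, 4.11 and 4.34 CPM in the heat libraries, against 16.2, 14 and 13.2 CPM in the control libraries. Its log2 fold change of −1.84 ± 0.12, set against a Col-0 rise of 9.57, gave a difference of −11.41 ± 0.19 (edgeR adjusted p = 6.11e-18).

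The other co-chaperones moved upward. Of 13, 11 rose and 1 fell, with a median of 0.50 (3.93 in Col-0). HOP3, an adaptor between HSP70 and HSP90, had 11.7, 12.2 and 13.1 CPM in the heat libraries, against 3.73, 3.96 and 5.06 CPM in the control libraries and rose by 1.53 ± 0.14, against 10.05 in Col-0, and the HSP90 partner SGT1A rose by 1.22 ± 0.14. Among 8 plastid and mitochondrial chaperonins, which fold newly imported proteins, 7 rose and none fell, and HSP60 and Cpn60beta2 rose by 0.86 and 0.71.

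**Figure D2:**
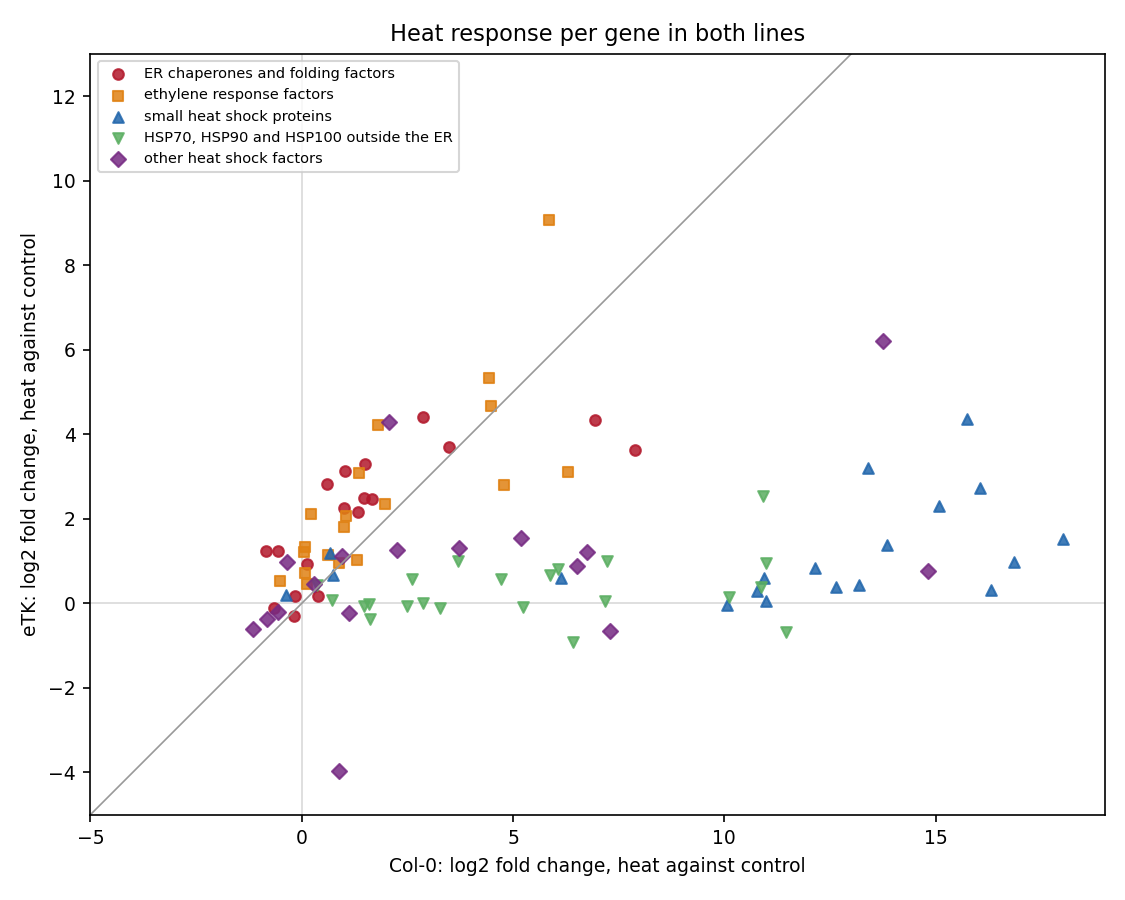
Log2 fold change of heat over control for each member of 5 gene lists, in eTK (vertical axis) and in Col-0 (horizontal axis), with the line of equal change. Small heat shock proteins and the HSP70, HSP90 and HSP100 genes lie far under the line, with medians of 0.68 and 0.12 in eTK and 12.65 and 4.97 in Col-0, and most ER chaperones lie above it, with medians of 2.37 in eTK and 1.01 in Col-0.

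The chaperones of the ER rose in eTK, and by gain in CPM BiP, the ER HSP90 and calnexin led. Background for this group is the unfolded protein response, in which IRE1 splices the BZIP60 transcript and BZIP28 is released from the ER membrane, and both factors activate chaperone genes through ER stress elements. Of 18 ER chaperones and folding factors, 14 rose, 13 of them by at least 2-fold, and 1 fell. The median was 2.37 in eTK and 1.01 in Col-0, and the response was higher in eTK for 11 genes and lower for 2. The list took 1.59% to 1.69% of the counts in the eTK heat libraries and 0.202% to 0.22% in the eTK control libraries.

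BIP2 (AT5G42020, chromosome 5.0, 16807342 to 16810693), the HSP70 of the ER lumen, had 5032, 5219 and 5174 CPM in the heat libraries, against 231, 243 and 255 CPM in the control libraries. The 3 heat libraries differed little from each other and stood far above control, with a log2 fold change of 4.40 ± 0.12 (edgeR adjusted p = 1.27e-14), against 2.86 in Col-0 and a difference between the lines of 1.54 ± 0.15 (edgeR adjusted p = 3.69e-07). Its near-identical copy BIP1 (2179, 2290.5 and 2265 CPM in the heat libraries, against 168, 173 and 181 CPM in the control libraries) rose by 3.69 ± 0.11, and reads of the 2 genes may have been split between them in counting. SHD (AT4G24190, chromosome 4.0, 12551552 to 12556058), the HSP90 of the ER, had 3072, 3318 and 3292 CPM in the heat libraries, against 347, 363 and 388 CPM in the control libraries. It rose by 3.14 ± 0.092 in eTK and 1.03 in Col-0, a difference of 2.11 ± 0.12. The lectin chaperone CNX1 (2309, 2388 and 2391 CPM in the heat libraries, against 242, 239 and 238 CPM in the control libraries) rose by 3.30 ± 0.082 in eTK and 1.50 in Col-0.

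The calcium-binding chaperones CRT1b and CRT1 separated the lines further. CRT1b had 1144, 1193 and 1163 CPM in the heat libraries, against 152, 170.3 and 175 CPM in the control libraries and rose by 2.82 ± 0.10, against 0.61 in Col-0. CRT1 had 478, 485 and 495 CPM in the heat libraries, against 197, 206 and 213 CPM in the control libraries and rose by 1.24 ± 0.087 in eTK, whereas it fell in Col-0 (−0.56), a difference of 1.80 ± 0.12 (edgeR adjusted p = 1.69e-09). The J-domain helpers of BiP rose too, with 2.50 for P58IPK and 2.25 for ERDJ3B, as did SDF2 with 2.15 and AT4G16660, an HSP70-like ER chaperone, with 2.48. TIN1, a tunicamycin-induced ER protein, had 47.2, 49.5 and 45.8 CPM in the heat libraries, against 3.07, 1.92 and 2.07 CPM in the control libraries and rose by 4.35 ± 0.23. The 2 members with a lower response in eTK than in Col-0 were TIN1, whose rise in Col-0 was 6.93 (difference −2.59 ± 0.31), and ERDJ3A, which rose by 3.63 ± 0.20 in eTK and 7.89 in Col-0 (difference −4.26 ± 0.26). ERDJ2A, a translocon-associated J protein, was the only member that fell, by 0.30 ± 0.078. BIP3, a marker of ER stress, had 1.94, 2.06 and 2.24 CPM in the heat libraries, against 1.19, 0.893 and 0.558 CPM in the control libraries and rose by 1.25 ± 0.48 (edgeR adjusted p = 0.0364). BIP3 did not pass the test without heat replicate 1, 2 or 3, without control replicate 2 or 3 or on library size alone (log2 fold changes 1.00 to 1.30, adjusted p of 0.0509 to 0.137).

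**Figure D3:**
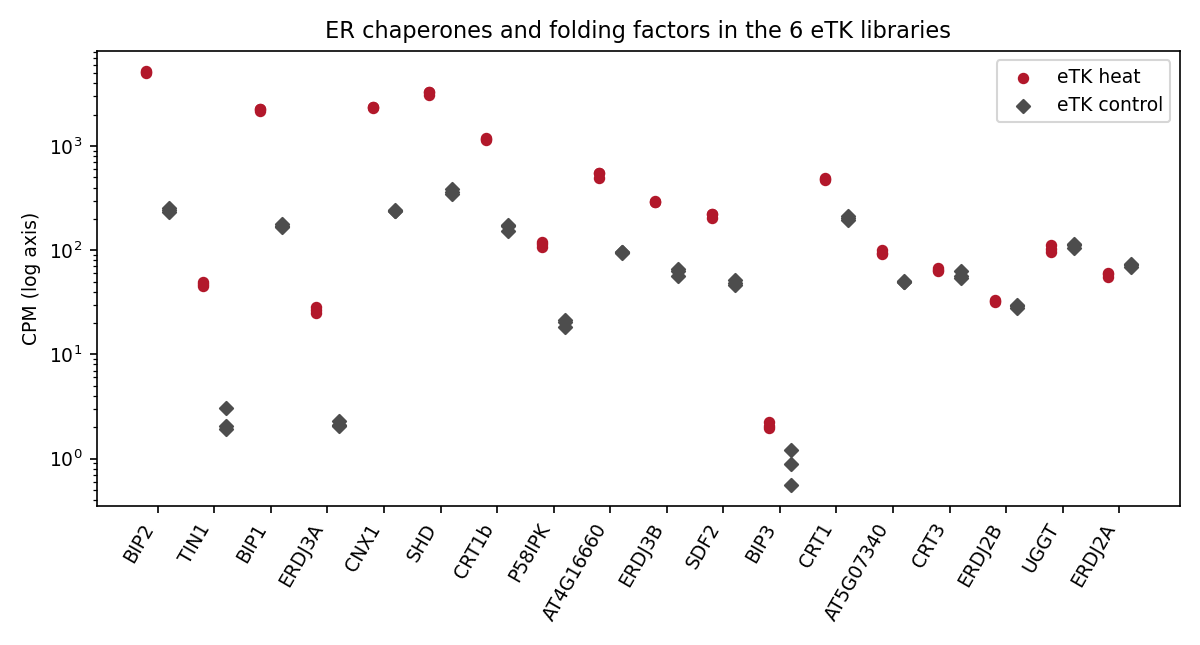
Level in CPM (log axis) of each of 18 ER chaperone and folding genes in the 3 eTK heat libraries (circles) and the 3 eTK control libraries (diamonds), ordered by fold change. For 16 of the 18 genes all heat libraries lie above all control libraries, and BIP2 leads with 5032 to 5219 CPM in heat.

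The factors upstream of these chaperones had smaller fold changes. Of 11 sensors and factors, 4 rose and 3 fell (36.4% and 27.3%, against 26.6% and 28.4% of all genes), with a median of −0.03. NAC062 and NAC089, membrane-tethered factors of the unfolded protein response, rose by 1.33 and 0.56, and BZIP60 and BZIP28 by 0.56 and 0.36. IRE1B, one of the 2 splicing sensors, fell by 1.21 ± 0.087. AT4G20310, the site-2 protease that cleaves membrane-bound bZIP factors, fell by 0.77 ± 0.13, and BZIP17 by 0.30 ± 0.089 against a rise of 0.44 in Col-0. Gene counts do not show splicing of BZIP60 or release of BZIP28. BZIP17 did not pass the test without heat replicate 1 (log2 fold change −0.22, adjusted p 0.055).

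The thiol enzymes of the ER divided. Of 12 protein disulfide isomerases and ERO1 oxidases, 6 rose and 5 fell, with a median of 0.20. PDIL2-2 had 139, 149 and 147 CPM in the heat libraries, against 18.8, 19.6 and 22.2 CPM in the control libraries, a rise of 2.84 ± 0.12, and PDIL2-3 rose by 2.26 ± 0.078, while PDIL1-3 fell by 1.04 ± 0.13. Among 15 genes of ER-associated degradation and early secretion, 11 rose and 2 fell, with a median of 0.73. HRD1B, a ubiquitin ligase that marks misfolded ER proteins, rose by 1.70 ± 0.11, and its paralogue HRD1A fell by 1.03 ± 0.12. DER2.1 rose by 1.12 ± 0.088, whereas DER2.2 fell by 0.44 ± 0.091.

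The promoters of 4 risen ER genes are shown because each holds the ER stress element, CCAAT and CACG with 10 bases between, searched on both strands. They run 5′ to 3′ to the base before the gene start, from TAIR10.1, with the element in capitals. It begins 22 bases before the start of SHD, 119 and 59 bases before that of P58IPK, 58 bases before that of AT4G16660, and 68 bases before that of CRT1. In SHD it lies in the forward orientation, and in the other 3 genes on the opposite strand. The windows of BIP2, BIP1, CNX1 and CRT1b, which also rose, held no match to this element. That of BIP3, whose call was lost under several settings, held it, beginning 174 and 96 bases before the gene start.
SHD (chr4:12556059-12556267, minus strand): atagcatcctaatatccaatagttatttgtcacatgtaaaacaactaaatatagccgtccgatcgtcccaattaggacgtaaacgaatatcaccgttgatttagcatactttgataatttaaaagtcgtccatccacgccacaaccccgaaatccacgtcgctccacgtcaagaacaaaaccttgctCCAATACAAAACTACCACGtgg
P58IPK (chr5:749851-750100, plus strand): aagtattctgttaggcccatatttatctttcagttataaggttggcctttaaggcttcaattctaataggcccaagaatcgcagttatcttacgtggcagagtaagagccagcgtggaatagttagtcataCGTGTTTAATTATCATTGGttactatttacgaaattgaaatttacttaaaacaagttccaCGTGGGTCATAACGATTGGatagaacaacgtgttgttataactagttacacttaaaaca
AT4G16660 (chr4:9376449-9376698, plus strand): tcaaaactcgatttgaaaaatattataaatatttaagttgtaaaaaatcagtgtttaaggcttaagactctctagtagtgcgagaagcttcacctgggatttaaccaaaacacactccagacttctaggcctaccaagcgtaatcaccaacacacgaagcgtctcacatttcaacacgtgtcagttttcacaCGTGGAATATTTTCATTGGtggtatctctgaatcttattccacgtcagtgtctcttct
CRT1 (chr1:21092710-21092959, minus strand): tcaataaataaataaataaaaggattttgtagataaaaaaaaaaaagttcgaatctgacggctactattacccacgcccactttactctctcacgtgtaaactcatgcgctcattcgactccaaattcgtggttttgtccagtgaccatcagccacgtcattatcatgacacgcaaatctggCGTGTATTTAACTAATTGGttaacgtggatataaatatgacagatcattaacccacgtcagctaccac

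The element stood in 0.785% of all 22547 windows and in 8 of the 19 windows (42.1%) of ER genes that rose 2-fold or more in eTK. Over the 45 genes of the 3 ER lists, whatever their response, 10 windows (22.2%) held it. In the 1350 nuclear genes that rose 2-fold or more its share was 1.7%, and in the 2375 that fell 0.337%. The core of another unfolded protein response element, TGACGTG, stood in 26.7% of the ER list windows and in 3.21% of all windows. It contains the ABRE core ACGTG, which stood in 57.8% of the ER list windows and 23.9% of all windows, and the CACG end of the ER stress element can overlap that core.

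Ethylene response factors and touch genes, which plants switch on within minutes of many stresses, rose broadly in eTK. Of 20 ethylene response factors, 18 rose, 15 of them by at least 2-fold, and none fell. Their median was 1.93 in eTK and 1.03 in Col-0, and the response was higher in eTK for 9 genes and lower for 2. AT1G33760 (AT1G33760, chromosome 1.0, 12237547 to 12238710), an AP2/ERF-type DNA-binding protein, had 7.02, 8.45 and 9.07 CPM in the heat libraries, against 0, 0 and 0.0349 CPM in the control libraries. With 1560 counts in heat and 4 in control, the ratio was 596 (95% interval 232 to 2.19e+03, counting error only). ERF104, a target of stress-activated protein kinases, had 210.2, 233 and 234 CPM in the heat libraries, against 12.2, 12.2 and 12.3 CPM in the control libraries and rose by 4.21 ± 0.19, against 1.81 in Col-0 and a difference of 2.40 ± 0.24. ERF13, ERF105 and ERF6 rose by 5.34, 4.68 and 3.09.

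Of 6 touch and calmodulin-like genes, 5 rose, with a median of 3.01 in eTK and 2.86 in Col-0. The response was higher in eTK for 1 gene and lower for 2. The calmodulin-like TCH3 had 624, 583 and 487 CPM in the heat libraries, against 44.9, 35.3 and 33.2 CPM in the control libraries, and each heat library was above each control library (log2 fold change 3.90 ± 0.19, 3.46 in Col-0). The wall enzyme TCH4 rose by 3.72 ± 0.29 in eTK and 5.60 in Col-0, a difference of −1.88 ± 0.37 (edgeR adjusted p = 0.00154). TCH2 rose by 2.77 ± 0.11 in eTK. CML37 rose by 3.25 ± 0.42 in eTK but by 9.83 in Col-0. Among 11 ZAT zinc fingers, repressors induced by reactive oxygen and cold, 6 rose and 1 fell, with a median of 1.32 in eTK and 5.14 in Col-0. ZAT10 had 25.9, 23.7 and 31.5 CPM in the heat libraries, against 3.69, 2.24 and 2.44 CPM in the control libraries and rose by 3.29 ± 0.27, ZAT12 rose by 2.14 ± 0.17 against 6.54 in Col-0, and AT2G28200 fell by 0.97 ± 0.15. AT3G46080, another member of this family, rose by 3.03 ± 0.52. The CAMTA box CGCGT, bound by calmodulin-dependent factors, stood in 12.7% of the windows of genes that rose 2-fold or more in eTK, in 5.22% of those that fell 2-fold or more, and in 7.35% of all windows.

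Hormone pathways moved member by member. Of 13 JAZ repressors of jasmonate signalling, 11 were tested, 6 rose and 2 fell. JAZ9 and JAZ5 rose by 1.79 and 1.56, and JAZ10 had 1.28, 1.08 and 0.967 CPM in the heat libraries, against 2.96, 3.12 and 3.15 CPM in the control libraries, a fall in eTK (−1.47 ± 0.19) set against a rise of 1.61 in Col-0. JAZ11 fell by 0.48 ± 0.10. Of 19 tested genes of jasmonate synthesis, turnover and targets, 8 rose and 3 fell. CYP94B3, which inactivates jasmonoyl-isoleucine, rose by 2.15 ± 0.30, LOX2, an early enzyme of jasmonate synthesis, by 1.60 ± 0.15, and the target VSP1 fell by 2.34 ± 0.46. CYP94C1, which further oxidises the hormone, and JAR1, which conjugates it, also fell, by 1.28 ± 0.37 and 0.39 ± 0.091.

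In abscisic acid (ABA) metabolism a catabolic gene changed most. CYP707A3 (AT5G45340, chromosome 5.0, 18368532 to 18371021), an ABA hydroxylase, had 69.8, 83 and 75.6 CPM in the heat libraries, against 1.19, 1.37 and 1.46 CPM in the control libraries, a rise of 5.81 ± 0.17 in eTK (edgeR adjusted p = 2.2e-14) and 4.48 in Col-0. Its relative CYP707A4 fell by 2.48 ± 0.40 in eTK and rose by 2.56 in Col-0. Of 13 tested genes of ABA synthesis and catabolism 2 rose and 6 fell: the synthesis enzyme NCED3 rose by 1.78 ± 0.20 and ABA1 fell by 1.75 ± 0.097. The clade A phosphatases, negative regulators that ABA itself induces, rose in 6 of 9 members and fell in 1, led by HAI1 (38.3, 36.7 and 28.7 CPM in the heat libraries, against 5.02, 3.92 and 4.1 CPM in the control libraries) at 2.99 ± 0.25 and HAI2 at 2.94 ± 0.35. HAB2 was the member that fell, by 0.31 ± 0.083. Of 9 ABA receptors 2 rose and 3 fell (22.2% and 33.3%, against 26.6% and 28.4% of all genes). PYL6 fell by 2.06 ± 0.28, and PYL9 and PYL5 rose by 0.80 and 0.40. Among 21 ABA factors and targets 8 rose and 3 fell. ABF3 rose by 1.17 ± 0.11, ABI5 fell by 1.66 ± 0.32 and RD29A, a classic ABA and drought marker, fell by 1.06 ± 0.29. RD29A had 135, 135 and 114 CPM in the eTK heat libraries, against an uneven 426, 230 and 143 CPM in the eTK control libraries. In Col-0 it was lower, at 48.5 ± 5.77 CPM in heat and 37.7 ± 5.7 CPM in control (SD, n = 3 each). The ABA-responsive factor ABF1 fell by 0.34 ± 0.083. ABF1 did not pass the test with an additive batch term (log2 fold change −0.23, adjusted p 0.0686). RD29A did not pass the test without control replicate 1, with only the libraries compared or with an additive batch term (log2 fold changes −1.06 to −0.54, adjusted p of 0.0598 to 0.286).

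Early auxin genes rose in 8 of 13 members and fell in 2. The auxin-conjugating GH3.5, GH3.3 and GH3.6 rose by 2.36, 2.19 and 2.06, and IAA3 and IAA29 changed by −0.97 and −0.95. Type A response regulators, which dampen cytokinin signalling, rose in none of 10 members and fell in 4, ARR8 by 1.28 ± 0.17 and ARR5 by 1.00 ± 0.18. IAA29 did not pass the test without heat replicate 1, 2 or 3, without control replicate 1, with only the libraries compared or with an additive batch term (log2 fold changes −1.05 to −0.31, adjusted p of 0.0599 to 0.478).

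The 71 tested SAUR genes, small auxin-responsive genes of growth, divided into 17 that rose and 21 that fell, with 7 of 78 members not tested. These shares, 23.9% and 29.6%, lie near the 26.6% and 28.4% of all genes tested. AT2G21210 had 1.98, 2.17 and 1.98 CPM in the heat libraries, against 29.7, 31.1 and 30.9 CPM in the control libraries, a log2 fold change of −3.90 ± 0.24, with all heat libraries under all control libraries. AT3G09870 had 1.15, 0.633 and 0.665 CPM in the heat libraries, against 0, 0.0981 and 0.0174 CPM in the control libraries and rose by 4.27 ± 0.84. The response was higher in eTK than in Col-0 for 19 SAUR genes and lower for 4.

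Antioxidant genes rose in 9 of 16 members and fell in 4, with a median of 0.41 in eTK and 0.62 in Col-0. APX2, a heat-inducible ascorbate peroxidase, had 0.824, 0.665 and 0.619 CPM in the heat libraries, against 0, 0.0589 and 0.0349 CPM in the control libraries, which is low in absolute terms but above control in each heat library (133 counts against 10). Its log2 fold change was 4.29 ± 0.32 in eTK and 12.45 in Col-0. CAT2, the leaf catalase, rose by 1.07 ± 0.11, and the plastid superoxide dismutase CSD2 fell by 1.28 ± 0.091. Of 10 tested alternative oxidase and retrograde genes 4 rose and 1 fell: NDB2 and AOX1A, which bypass proton-pumping complexes of the respiratory chain, rose by 1.57 and 1.35, and NDA1 fell by 1.92 ± 0.22. Of 38 tested tau and phi glutathione transferases 19 rose and 1 fell. GSTU6 and GSTU5 rose by 1.93 and 1.47, and GSTU2 fell by 0.54 ± 0.21 in eTK against a rise of 1.61 in Col-0. GSTU2 did not pass the test without heat replicate 1 or 2, without control replicate 1, 2 or 3 or with an additive batch term (log2 fold changes −0.57 to −0.33, adjusted p of 0.0528 to 0.243).

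Among 8 galactinol and raffinose synthases, which make osmoprotectant sugars, 4 rose and 1 fell in eTK. GOLS2 had 4.45, 2.79 and 2.09 CPM in the heat libraries, against 0.815, 0.687 and 0.314 CPM in the control libraries and rose by 2.40 ± 0.38, GOLS4 rose by 2.12 ± 0.34, and GOLS3 fell by 1.41 ± 0.44. GOLS1, a direct target of heat shock factors, had 3.08, 2.83 and 2.81 CPM in the heat libraries, against 3.16, 1.68 and 2.03 CPM in the control libraries and did not pass the test. Its log2 fold change in Col-0 was 10.37. GOLS3 did not pass the test without control replicate 1 (log2 fold change −1.0, adjusted p 0.0876). GOLS1 passed the test without control replicate 1 (log2 fold change 0.65, adjusted p 0.0167).

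Transcripts of the mitochondrial genome rose as a group in eTK. Of 122 identifiers 74 were tested, 72 rose by at least 2-fold and none fell, with a median of 4.78 in eTK and 5.84 in Col-0. All 122 together had 536.6, 549.9 and 658.1 CPM in the eTK heat libraries, against 39.1, 40.9 and 45.9 CPM in the eTK control libraries. The difference between the lines was called lower in eTK for 9 genes and higher for none. ATMG00690 had 74.5, 67.2 and 66.5 CPM in the heat libraries, against 0.57, 0.461 and 0.401 CPM in the control libraries, a rise of 7.20 ± 0.32, and ATMG00090 and ATMG00030 rose by 3.53 and 2.54. ATMG00630, ATMG00810 and ATMG00370 rose by 7.32, 6.76 and 6.21. ATMG00180 and ATMG01100 had no count in the eTK control libraries and 0.511, 0.459 and 0.378 CPM and 0.412, 0.206 and 0.483 CPM in the eTK heat libraries. Chromosome 2 holds an insertion of mitochondrial DNA near its centromere. Of 53 tested genes with identifiers beginning AT2G076 or AT2G077, which lie in that region, 49 rose and none fell, and reads of the copies cannot be assigned with certainty. Whether polyadenylated RNA was selected is not given in the sources used here.

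Transcripts of the plastid genome gave another picture. Of 88 identifiers 74 were tested, 4 rose and 7 fell in eTK, with a median of −0.39, against 0.88 in Col-0, and on library size alone 3 rose and 13 fell. Their sum was 297.2 to 393.3 CPM in the eTK heat libraries and 327.3 to 532.4 CPM in the eTK control libraries, so the groups overlapped. The response was lower in eTK than in Col-0 for 22 plastid genes and higher for none, relative to the TMM scaling. Without that scaling, plastid transcripts took 0.0309% to 0.0415% of the counts in the Col-0 heat libraries. In the Col-0 control libraries they took 0.0288% to 0.0298%. ATCG00070 rose by 1.65 ± 0.22 and ATCG00170 fell by 1.45 ± 0.34.

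**Figure D4:**
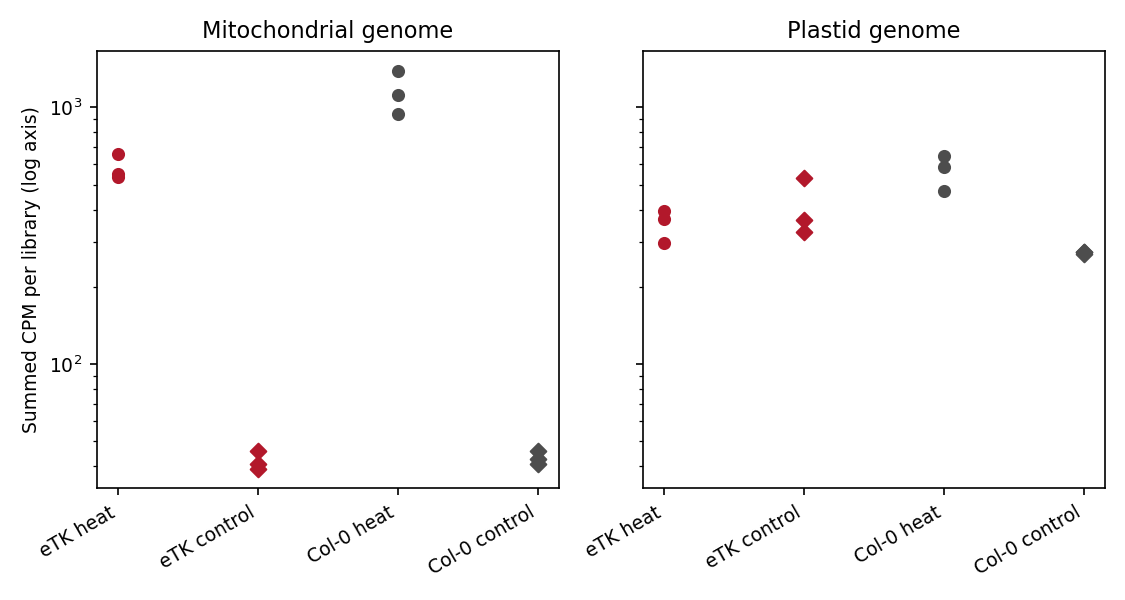
Summed CPM (log axis) of the transcripts of the mitochondrial genome (left) and the plastid genome (right) in each library of eTK heat, eTK control, Col-0 heat and Col-0 control. Mitochondrial sums lie at 536.6 to 658.1 CPM in eTK heat and 39.1 to 45.9 CPM in eTK control, while plastid sums of these 2 groups overlap.

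Genes of light harvesting fell. Of 20 antenna protein genes 17 fell and 3 rose, with a median of −1.18 in eTK and −0.93 in Col-0. The list took 3.62% to 3.72% of the counts in the eTK heat libraries and 7.73% to 9.41% in the eTK control libraries. LHCB1.1 (AT1G29920, chromosome 1.0, 10474656 to 10475969) had 252, 229 and 242 CPM in the heat libraries, against 2870.5, 2924 and 2818 CPM in the control libraries. All heat libraries lay far under all control libraries, with a log2 fold change of −3.58 ± 0.18 (edgeR adjusted p = 1.89e-11). LHCB2.1 and LHCB2.2 fell with −3.14 and −3.02, and the most abundant member, LHCB1.3, had 10423, 10024 and 10637 CPM in the heat libraries, against 22346, 20331 and 17314 CPM in the control libraries and fell by 0.95 ± 0.13. The LHCB1 genes share near-identical sequence, so their separate values are uncertain. The members that rose were the minor antenna genes LHCA6, LHCA5 and LHCB4.3, by 0.74, 0.53 and 0.59. Of 26 nuclear photosystem subunits 12 fell and 3 rose, PSAD-2 by 0.81 ± 0.12 on the falling side. The 3 that rose were PSB28, PSBO2 and PSBQA, by 0.75, 0.38 and 0.41. LHCB4.3 did not pass the test without heat replicate 1, 2 or 3, without control replicate 1, on library size alone, with no filter on low counts, with only the libraries compared or with an additive batch term (log2 fold changes 0.32 to 0.64, adjusted p of 0.0588 to 0.173). PSBO2 did not pass the test without control replicate 1 or with an additive batch term (log2 fold changes 0.29 to 0.32, adjusted p of 0.0542 to 0.0567).

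**Figure D5:**
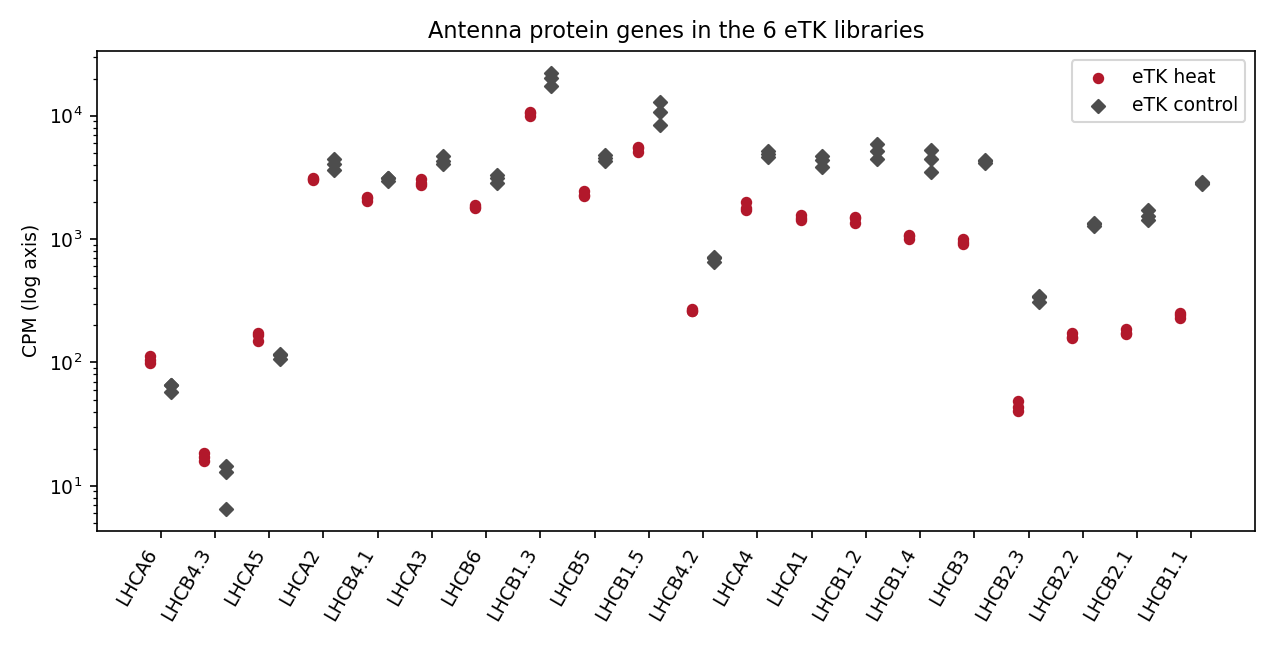
Level in CPM (log axis) of each of 20 antenna protein genes in the 3 eTK heat libraries (circles) and the 3 eTK control libraries (diamonds), ordered by fold change. For 17 genes the heat libraries lie under the control libraries, and the distance is widest for LHCB1.1, at 229 to 252 CPM in heat and 2818 to 2924 CPM in control.

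Carbon fixation genes moved the other way. Of 16 Rubisco small subunit and Calvin cycle genes, 10 rose and none fell, with a median of 0.47. RBCS2B and RBCS1B, which are near-identical copies, rose by 1.09 and 0.99. The list of cytosolic ribosomal proteins was taken from gene symbols and descriptions. Of its 56 tested genes (60 listed) 27 rose and 1 fell, with a median of 0.34. AT3G28500 and SAG24 led with 0.91 and 0.66. RPS10, whose description does not say that its ribosome is cytosolic, fell by 0.47 ± 0.16. Among 36 tested 26S proteasome subunits (37 listed) 22 rose and none fell, with a median of 0.32. RPN8A and PAE1 rose by 0.59 and 0.58. On library size alone 17 proteasome genes rose and 3 fell. Reference genes often used for normalisation rose in 5 of 9 members and fell in 1: ACT2 rose by 0.86 ± 0.08, UBQ10, a polyubiquitin gene whose repeats are shared with its kin, by 1.30 ± 0.097, and AT2G28390 fell by 0.17 ± 0.069. AT2G28390 did not pass the test without heat replicate 1 or 2, without control replicate 1 or 2, with DESeq2 size factors, by the DESeq2 Wald test, with no filter on low counts, with only the libraries compared or with a replicate block (log2 fold changes −0.18 to −0.14, adjusted p of 0.0516 to 0.153). RPS10 did not pass the test without heat replicate 1 or without control replicate 2 or 3 (log2 fold changes −0.46 to −0.35, adjusted p of 0.0509 to 0.108). AT3G28500 did not pass the test without heat replicate 1 or without control replicate 3 (log2 fold changes 0.74 to 0.78, adjusted p of 0.0792 to 0.0955).

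Cell wall loosening genes rose in 7 of 25 members and fell in 11 (28% and 44%, against 26.6% and 28.4% of all genes). XTH13, a xyloglucan-remodelling enzyme, had 0.132, 0.0316 and 0.0907 CPM in the heat libraries, against 7.44, 7.97 and 8.49 CPM in the control libraries, which is 16 counts against 2334 and a ratio of 0.0105 (95% interval 0.00597 to 0.017). The expansin EXPA1 fell by 2.38 ± 0.16. XTH9 rose by 1.95 ± 0.14 and XTH16 had 179, 187 and 167 CPM in the heat libraries, against 56.1, 48.5 and 44.5 CPM in the control libraries, a rise of 1.84 ± 0.098 in eTK set against a fall in Col-0 (−0.50), with a difference of 2.34 ± 0.14.

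The clock list had 5 members that rose and 8 that fell of 19 (26.3% and 42.1%, against 26.6% and 28.4% of all genes). The evening and day genes PRR5, FKF1 and GI fell with −2.32, −2.30 and −1.84, and RVE1, a morning factor, rose by 1.50 ± 0.12. PRR7 had 43.8, 34.8 and 35.6 CPM in the heat libraries, against 220.2, 182 and 164 CPM in the control libraries, a fall (−2.31 ± 0.15) opposed to a rise of 1.13 in Col-0. Of 13 PIF and thermomorphogenesis genes 3 rose and 5 fell (23.1% and 38.5%), and on library size alone 3 rose and 8 fell. PIF4, the factor that drives warm-temperature elongation, fell by 1.58 ± 0.21, the auxin synthesis gene YUC8 fell by 1.59 ± 0.25 and YUC9 rose by 2.32 ± 0.19. HY5, which opposes PIF4, rose by 1.34 ± 0.18, and the shade factor HB-2 by 1.48 ± 0.13. Among 17 cell cycle genes 5 rose and 4 fell (29.4% and 23.5%, against 26.6% and 28.4% of all genes). On library size alone 1 rose and 4 fell. The cyclins CYCD3;1 and CYCA1;1 fell by 0.79 ± 0.19 and with −0.71. CYCA1;1 did not pass the test without heat replicate 1 or 2 or without control replicate 3 (log2 fold changes −0.69 to −0.58, adjusted p of 0.052 to 0.0747).

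The lists of specialised metabolism and defence had called shares that were not set apart from the 54.9% of all genes by any test. Of 18 flavonoid and phenylpropanoid genes 8 rose and 3 fell: FLS1 and CHS, enzymes of flavonol synthesis, rose by 1.63 and 1.60, and their regulator MYB111 fell by 0.96 ± 0.30 in eTK against a rise of 0.84 in Col-0. The enzyme genes PAL4 and TT7 fell by 0.55 ± 0.12 and 0.54 ± 0.16. Of 20 glucosinolate genes 3 rose and 9 fell. MYB51, an activator of indole glucosinolates, rose by 1.64 ± 0.19 in eTK and fell in Col-0 (−0.66), a difference of 2.31 ± 0.28, and MYB29 and CYP83B1 fell with −1.71 and −1.61. BCAT4 and MAM1, which lengthen the methionine chain, rose by 1.12 and 0.49. Among 14 salicylate and defence genes 4 rose and 2 fell (28.6% and 14.3%, against 26.6% and 28.4% of all genes). CBP60G and SARD1, activators of salicylate synthesis, rose by 2.66 and 2.41 in eTK and had 0.13 and 0.70 in Col-0, and CYP71A13, an enzyme of camalexin synthesis, fell by 2.67 ± 0.61. NPR1, a salicylate receptor, fell by 0.46 ± 0.088. MAM1 did not pass the test without heat replicate 1, 2 or 3, without control replicate 1 or 2, on library size alone, with no filter on low counts, with only the libraries compared or with an additive batch term (log2 fold changes 0.26 to 0.54, adjusted p of 0.0511 to 0.204). MYB111 did not pass the test without control replicate 3 (log2 fold change −0.77, adjusted p 0.0552).

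Of 61 tested WRKY factors (67 listed), defence-related regulators, 20 rose and 11 fell. The median was 0.31 in eTK and −0.40 in Col-0, and the response was higher in eTK for 14 genes and lower for none. WRKY46 had 18.4, 18.4 and 14.1 CPM in the heat libraries, against 2.77, 1.33 and 0.854 CPM in the control libraries and rose by 3.38 ± 0.31, and WRKY18 rose by 3.30 ± 0.17. WRKY34 had 47 counts in heat and 2 in control, a ratio of 35.9 (95% interval 9.4 to 305). The immune receptor genes AT5G41740 and AT5G41750, neighbours of the TIR-NBS-LRR class, had log2 fold changes of 5.35 ± 0.15 and 5.40 ± 0.25. AT5G41740 had 57.8, 65.3 and 56.6 CPM in the heat libraries, against 1.6, 1.34 and 1.46 CPM in the control libraries. The 2 genes are similar in sequence, so reads may have been shared between them.

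Lists of RNA processing and chromatin genes held both small and large changes. Of 20 SR splicing factors 14 rose and none fell, with a median of 0.41, and RS31A and RS2Z33 rose by 0.80 and 0.77. Of 27 chromatin regulators 5 rose and 10 fell. JMJ30, a histone demethylase of heat memory, rose by 1.71 ± 0.12, and the histone chaperone ASF1A fell by 0.75 ± 0.11. Among 18 genes of the small RNA machinery 3 rose and 7 fell. AGO2 (AT1G31280, chromosome 1.0, 11181504 to 11185396), an Argonaute of antiviral defence, had 0.593, 0.728 and 0.453 CPM in the heat libraries, against 11.9, 11.5 and 12.4 CPM in the control libraries. It fell by 4.33 ± 0.15 in eTK and rose by 1.73 in Col-0, a difference of −6.06 ± 0.19 (edgeR adjusted p = 1.65e-14), and AGO1 fell by 1.31 ± 0.087 in eTK. HYL1 and AGO4 rose by 0.27 and 0.45. Of 13 autophagy genes 6 rose and 1 fell, ATG8H by 0.79 and ATG8E by 0.73, and ATG7 fell with −0.42. HYL1 did not pass the test without heat replicate 2 or 3, without control replicate 1, 2 or 3, on library size alone, with no filter on low counts or with an additive batch term (log2 fold changes 0.18 to 0.29, adjusted p of 0.0627 to 0.247). AGO4 did not pass the test without heat replicate 2 or 3 (log2 fold changes 0.34 to 0.41, adjusted p of 0.0521 to 0.0789).

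The largest rises, taken over called genes with no overlap between the heat and control libraries and a mean of at least 5 CPM in the higher group, were in genes of varied function. AT5G10340, an F-box protein, had 5.47, 5.24 and 4.56 CPM in the heat libraries, against 0, 0 and 0.0523 CPM in the control libraries, or 965 counts against 6. HA9, a plasma membrane proton pump, had 6.95, 8.39 and 6.86 CPM in the heat libraries, against 0.0543, 0.0491 and 0.139 CPM in the control libraries and rose by 6.42 ± 0.49, and the F-box protein EDL3 rose by 5.35 ± 0.29. AT3G41762 had 76.4, 80.6 and 71.4 CPM in the heat libraries, against 0.557, 0.481 and 0.985 CPM in the control libraries and AT2G01008 had 27.7, 23.9 and 23.4 CPM in the heat libraries, against 0.434, 0.471 and 0.314 CPM in the control libraries, rises of 6.79 ± 0.25 and 5.95 ± 0.20. AT2G01008 (chromosome 2, 1025 to 3173, plus strand) ends 532 bases before the 18S ribosomal RNA gene AT2G01010 on the same strand. AT3G41762 (chromosome 3, 14195447 to 14196865, minus strand) lies 811 bases from the 18S gene AT3G41768, which is on the opposite strand. In Col-0 the log2 fold changes were 3.06 for AT3G41762 and 3.20 for AT2G01008.

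By the same limits the largest falls included CIPK20, a calcium-regulated protein kinase, with 0.758, 0.791 and 0.695 CPM in the heat libraries, against 36.5, 25.8 and 19.4 CPM in the control libraries and a log2 fold change of −5.18 ± 0.30. GLL22, a GDSL lipase, had 2.04, 2.41 and 2.89 CPM in the heat libraries, against 58.8, 71.8 and 78.8 CPM in the control libraries and fell by 4.83 ± 0.22, and BGLU21, a beta-glucosidase, fell by 4.07 ± 0.20. The falls of sks15, AT5G10130, AT1G50060 and AT3G19430 lay between −3.80 and −3.65.

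By gain in CPM, the leading genes were ER chaperones and abundant leaf transcripts. SHD, BIP2, CNX1 and BIP1 were joined by RBCS2B, by the carbonic anhydrase CA1 (3298, 3559 and 3743 CPM in the heat libraries, against 1131, 1406 and 1543 CPM in the control libraries), by THI1 of thiamine synthesis (5079, 5442 and 5630.3 CPM in the heat libraries, against 3192, 3226 and 3301 CPM in the control libraries) and by UBQ10. The 8 largest losses were all antenna genes: LHCB1.1 to LHCB1.5, LHCB3, LHCA1 and LHCA4. Among them LHCB1.2 and LHCB1.4 fell by 1.85 ± 0.16 and 2.08 ± 0.23.

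Differences from Col-0 were ranked over genes called in eTK by at least 2-fold whose higher eTK group averaged at least 5 CPM, limits that no small heat shock protein passed. On the higher side AT5G10340, given above, was joined by FAF4 and 3 other genes. FAF4 had 7.3, 8.17 and 6.33 CPM in the heat libraries, against 1.4, 1.05 and 1.08 CPM in the control libraries, a rise of 2.63 ± 0.26 in eTK with a fall in Col-0 (−2.81) and a difference of 5.44 ± 0.43 (edgeR adjusted p = 1.86e-08). AT2G22460, AT1G19394 and ATSDI1, a gene of the sulphur starvation response, rose by 4.43, 3.47 and 3.85, with 0.03, −0.75 and −0.35 in Col-0. On the lower side BAG6, HOP3, HSP70 and HSFA2, given above, were joined by PTR5. This gene, which encodes a peptide transporter, had 2.37, 2.41 and 2.89 CPM in the heat libraries, against 6.58, 4.78 and 4.69 CPM in the control libraries, a fall in eTK (−1.06 ± 0.17) set against a rise of 6.82 in Col-0.

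Single-exon genes took a larger share of the genes that changed 2-fold or more, in both directions, than of all genes. Of the 1350 nuclear genes that rose, 31.9% had a single exon, and of the 2375 that fell 36%, against 17.4% of the 22547 nuclear genes tested and 21.4% of the 2054 genes that rose 2-fold or more in Col-0. The median transcript length was 1337 bases for the risen genes, 1883 for the fallen ones and 1672 for all.

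Markers of tissues were examined beside these changes. Of 10 root markers 1 rose and 4 fell, and their summed level was 106.8 to 117.8 CPM in the heat libraries and 149.3 to 164.5 CPM in the control libraries. Of 8 stomatal lineage and guard cell markers none rose and 4 fell, with sums of 66.8 to 70.9 CPM in heat and 79.9 to 81.3 CPM in control. Of 5 vascular markers 3 rose and 1 fell, with sums of 137.1 to 157.7 CPM in heat and 137.3 to 151.1 CPM in control. Of 8 seed and embryo markers 7 were tested and 1 rose, with sums of 11.2 to 33 CPM in heat and 15.1 to 61 CPM in control. COBL9, a root hair marker, fell by 1.66 ± 0.22 and the stomatal EPF1 by 1.76 ± 0.34, while the xylem marker XCP1 rose by 1.17 ± 0.13. SCR, of the root endodermis, fell by 1.29 ± 0.15, and RHD6, of root hairs, rose by 1.19 ± 0.30. IRX3, of secondary walls, rose by 0.91 ± 0.11 and the phloem transporter SUC2 fell by 0.77 ± 0.13. The seed gene EM1 had 1.55, 0.918 and 0.483 CPM in the heat libraries, against 0.353, 0.118 and 0.105 CPM in the control libraries and rose by 2.40 ± 0.80. The part of tissue make-up in the changes above was not tested. EM1 did not pass the test without heat replicate 1 or without control replicate 2 or 3 (log2 fold changes 1.91 to 2.14, adjusted p of 0.0742 to 0.0853).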

How the data were processed

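Per the labels' protocols, RNeasy columns yielded the total RNA of whole seedlings, and the libraries were read on a NovaSeq. The authors deposited raw read counts per gene for 27655 genes as 1 table, made with featureCounts, Subread 2.0.6, STAR 2.7.9a and fastp 0.24.0 per the submitters' processing notes. The genome build, annotation, strand setting and treatment of multiply mapped reads are not given in the sources used here, so counts of near-identical, overlapping or antisense genes are uncertain. In the Arabidopsis libraries 75.4% to 83.3% of the non-zero counts were even, as when both mates of a pair are counted.

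From the deposited counts, edgeR 4.0.16 in R 4.3.3 (filterByExpr, TMM, robust glmQLFit and glmQLFTest, with limma 3.58.1) fitted 1 model with a term for each of 6 groups of line, treatment and batch to all 18 Arabidopsis libraries. Batch 2 held control libraries only, which helped to estimate the spread. Contrasts were heat in eTK, heat in Col-0, their difference, and the lines in control, all within batch 1, with Benjamini-Hochberg adjustment over 22696 genes at 0.05. The SE is the log2 fold change divided by the root of the F statistic. Few-count ratios have Clopper-Pearson 95% intervals for counting error only. They were made from the deposited counts, so they are too narrow if both mates of a pair were counted. Alternatives were DESeq2 size factors, library size alone, the DESeq2 1.42.0 Wald test, other filters, fewer libraries, an additive batch term, a replicate block, halved counts and leaving out single libraries. In counts simulated for heat in eTK (22599 genes) the fit recovered 97 of 100 genes changed 2-fold and 100 of 100 changed 4-fold, with 12 calls among unchanged genes. The simulation gave every gene the same dispersion, changed only well-counted genes and left all others equal. The real data differ in each of these, so the figures do not measure the test on them. Replicate pairs within the 2 eTK groups correlated by 0.986 to 0.994 on the log2 CPM scale, and all differed beyond sampling noise.

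The members and gene lists were chosen with earlier results of these data known. Genes named are the 4 HSFA1 genes, the 10 largest called rises and falls among genes whose groups do not overlap and whose higher group averages at least 5 CPM, the 8 largest gains and losses in CPM of called nuclear genes, the called list members with the largest changes, those against their list, and the 5 largest differences from Col-0 in each direction among genes called by at least 2-fold with a higher group of at least 5 CPM. Other list members and other genes were chosen after their values were seen. Positions and sequences are from the RefSeq assembly TAIR10.1.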

Additional observations from a re-analysis of the deposited data

Results flagged for a closer look

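Of the 234 genes named, 123 had a heat response that differed between the lines by edgeR's interaction test at an adjusted p below 0.05. For 18 of them the called directions were opposite, 5 higher in eTK and lower in Col-0 and 13 lower in eTK and higher in Col-0. The values below are eTK minus Col-0 differences of log2 fold changes from the same 12 libraries as above.

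Genes that rose in eTK and fell in Col-0 had differences of 1.80 for CRT1, an ER calreticulin, 1.31 for the heat shock factor HSFC1, 2.34 for the wall enzyme XTH16, 2.31 for MYB51 and 5.44 for FAF4.

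For genes that fell in eTK and rose in Col-0, the chaperone and heat shock factor values were −12.12 for Hsp70b, −11.41 for BAG6, −7.94 for HSFA7A, −7.34 for CLPB4 and −1.98 for HSP70-14. Among regulators the difference was −0.74 for BZIP17, −3.45 for PRR7, −3.08 for JAZ10, −1.80 for MYB111 and −6.06 for AGO2. Among enzymes and transporters it was −7.87 for PTR5, −5.04 for CYP707A4 and −2.15 for GSTU2. The eTK falls of BZIP17, MYB111 and GSTU2 were lost under the settings given beside them above. The Col-0 directions and the differences are also relative to the TMM scaling. On library size alone the median difference over all genes moved to 0.63. Small Col-0 changes, such as those of BZIP17 and MYB111, therefore depend on the scaling, and Col-0 directions were not tested without it. Groups held 3 libraries each, too few for a check of single outlying libraries.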

How the results depend on the processing

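The 6 counts of called genes stayed within 1.5 times their value under 8 of 9 other settings. On library size alone the heat counts were 4892 higher and 7369 lower, and the interaction counts became 13670 higher and 1021 lower in eTK, as the median difference moved to 0.63. Leaving out 1 library at a time gave 5251 to 5640 genes higher, 5773 to 6115 lower, 1347 to 1456 higher and 2272 to 2442 lower by at least 2-fold, and 1727 to 2525 genes with a higher and 1894 to 2940 with a lower response in eTK.

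With the replicate number as a block there were 6908 genes higher and 7098 lower, 1411 and 2356 of them by at least 2-fold, and 1924 and 1989 with a higher and a lower response in eTK. Same-numbered eTK libraries correlated by 0.115, 0.00246 and 0.0888 in their deviations from the group means, and differently numbered ones by −0.114 to 0.0286. These small values do not settle whether the numbers pair the samples, so the main fit has no block and the block counts are given beside it. No block was fitted for the lines in control.

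In control the HSFA1A difference was 0.89 to 1.02 when 1 library was left out, that of HSFA1B −3.43 to −3.02, that of HSFA1D −1.42 to −1.34 and that of HSFA1E 0.31 to 0.57. HSFA1E passed the test without Col-0 control replicate 1 (0.57, edgeR adjusted p = 0.043) and with only the libraries compared (0.42, edgeR adjusted p = 0.0311). The cause was not tested.

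Of the 234 genes named, 24 changed their call or sign under at least 1 setting, and each is given beside its value with the settings and libraries concerned. Leaving out 1 eTK library ended the call of 7 to 11 of them, and heat replicate 1 and control replicate 1 ended the most. HSP21, never called, turned its sign without heat replicate 1, with values of −0.38 to 1.84 when 1 library was left out. Other settings ended the calls of 0 to 8, most with an additive batch term.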

Other observations

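Some mitochondrial genes, chosen after their values were seen, had different levels in the 2 lines, in control too. Their log2 differences of eTK from Col-0 in control were 5.99 ± 0.93 for ATMG00370, −7.84 ± 0.98 for ATMG01170 and −6.76 ± 1.16 for ATMG01090, with edgeR adjusted p values of 0.000375, 5.96e-05 and 0.0009. These fits rest on groups at or near 0 and their sizes are no bounds. The heat responses of these genes did not pass the interaction test, with edgeR adjusted p values of 0.857, 0.816 and 0.933. ATMG00370 had 7.63, 6.92 and 8.34 CPM in the heat libraries, against 0.0815, 0.0589 and 0.157 CPM in the control libraries of eTK, while it had 0.0158 ± 0.0139 CPM in Col-0 heat (SD, n = 3). ATMG01170 was low in eTK, with 0.0329, 0 and 0.0302 CPM in the eTK heat libraries and 14.2 ± 2.99 CPM in Col-0 heat, and in eTK control it had 0, 0 and 0 CPM. Its eTK change did not pass the edgeR test, but it did by the DESeq2 Wald test (3.47, adjusted p = 0.0267) and with an additive batch term (3.96, edgeR adjusted p = 0.032). ATMG01090 was similar, with 0, 0.0316 and 0 CPM in the eTK heat libraries and 19 ± 4.51 CPM in Col-0 heat.

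The 2 genes beside 18S ribosomal RNA copies reached higher levels in heat in eTK than in Col-0. AT3G41762 had 76.4, 80.6 and 71.4 CPM in the eTK heat libraries and 4.1 ± 0.718 CPM in Col-0 heat, and the difference of the log2 responses was 3.73 ± 0.34 (edgeR adjusted p = 1.55e-07). For AT2G01008 the values were 27.7, 23.9 and 23.4 CPM in eTK heat and 2.19 ± 0.189 CPM in Col-0 heat, with a difference of 2.75 ± 0.28 (edgeR adjusted p = 5.87e-07).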
